A study of Mus musculus with 6 samples.

Results

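The CD24+CD29hi gate of the mouse mammary gland was compared with a reference RNA from cultured cell lines, to describe which genes these sorted cells carry far above or far below that common standard. The contrast comprised all 6 arrays of the series, 3 from Lgr5-positive and 3 from Lgr5-negative cells of the gate, and it set the Cy5 channel of each array against its Cy3 channel. The mice were virgin, of strain C57/B6, and carried in both fractions the lgr5-egfp-ires-creert2 allele, whose EGFP reports the Lgr5 locus. Mammary tissue was the source of all cells. The age of the animals, the Lin markers, and whether a sample pooled several animals are not given in the sources used here. Both fractions lay in the Lin-CD24+CD29hi window called P4, and the presence or absence of EGFP then separated them. On every array the sorted cells were labelled with Cy5, and Universal Mouse Reference RNA, a mix of 11 mouse cell lines, was labelled with Cy3. The labels do not list those lines, and nothing in them states that replicates came from separate animals, so p-values measure only the spread between these samples, which may be technical.

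The CD24+CD29hi window is known to enrich for basal cells of the mammary epithelium. These cells sit on the basement membrane, carry keratins of stratified epithelia together with a smooth-muscle contractile apparatus that ejects milk, and include cells able to regenerate a gland on transplantation. Such a gate may also hold stromal and vascular cells, because CD24 and CD29 are not restricted to the epithelium. In a sorted bulk sample, fewer cells of a type and less RNA per cell cannot be told apart.

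Values are log2 ratios of sample over reference, so 1 means a 2-fold higher signal in the gate and -1 a 2-fold lower one. A ratio gives the distance of a gene from the reference and not its abundance in the cells, since the reference level differs from gene to gene. A gene was called above or below the reference when its mean over both fractions differed from the reference by more than 2-fold (limma's treat test against a log2 ratio of 1, two-sided, Benjamini-Hochberg adjusted p under 0.05 over all 18537 genes tested). Because the reference was 1 RNA on all arrays, the test leaves out its own spread. No dyes were swapped, so the dye effect of each probe stays in each ratio. Means are given with the standard error of the fit, n = 6 arrays. The fit treated the arrays as independent, although arrays with the same replicate number deviated together. The standard errors and p-values may therefore be too small.

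Of the 18537 genes tested, 849 (4.58%) lay above the reference and 1320 (7.12%) lay below it, or 616 and 835 with same-numbered arrays averaged. Every count of called list members below stands beside the shares of 4.58% and 7.12%. A count near those shares is no result about its list. The called genes had 1 sign on all 6 arrays in 844 of 849 cases above and in 1320 of 1320 cases below. There were 37 genes with a mean log2 ratio above 5 and none below -5, and 262 called genes (1.41%) lay at least 8-fold above the reference against 50 (0.27%) at least 8-fold below. The Cy5 background and the offset limit how low a ratio can go, and with the scanner's log ratio Spinkl reached -6.38 and Phex -6.35, so the reach of the 2 sides is not compared. The median range over the 6 arrays was 1.49 on the log2 scale for the genes above and 0.669 for the genes below, which the same floor limits. The range exceeded 2 in 220 genes above and in 16 genes below.

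Median Cy5 signal was 137 to 278 over a Cy5 background of 64 to 76, median Cy3 signal was 172 to 211.5, and no spot was saturated in either channel. Cy5 was well above background for 50.9% to 74.4% of probes and Cy3 for 69.9% to 87.2%, so a gene with a low ratio was more often near the Cy5 floor. In 67 of the 1320 genes below the reference, no array read Cy5 well above background, and a fold for such a gene is given as a bound. The number of arrays limits the precision of every value. Arrays with the same replicate number correlated at 0.847 to 0.921 over all genes, arrays of the same fraction at 0.819 to 0.874, and the remaining pairs at 0.736 to 0.826. With all arrays scaled to their medians in place of the loess curve, the median of all genes moved from -0.03 to -0.28, and the calls were 573 above and 2845 below, or 16.8% above in place of 39.1%. No gene that is named here as called above or below changed sign under that scaling.

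Of the 12 called genes farthest above the reference, Fabp4, a cytoplasmic fatty acid carrier known in adipocytes and capillary endothelium, had the highest ratio. Its log2 ratio was 6.68 on the lowest array, 7.69 at the median and 8.15 on the highest. The mean of 7.46 ± 0.15 is a 176-fold difference (adjusted p = 1.6e-06). Crispld2, a secreted protein that binds lipopolysaccharide, had a mean log2 ratio of 7.09 ± 0.10 and lay between 6.54 and 7.40. Glycam1, a mucin-like glycoprotein of milk that high endothelial venules also make as a ligand of L-selectin, had a mean log2 ratio of 7.0 ± 0.11. It lay between 6.43 and 6.71 on the Lgr5-positive and between 7.18 and 7.88 on the Lgr5-negative arrays, without overlap.

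Col17a1 and Cdh3 act in cell attachment. Col17a1, the transmembrane collagen of hemidesmosomes, ranged from 5.78 to 7.16 with a mean log2 ratio of 6.70 ± 0.13, a 104-fold difference. Cdh3 encodes P-cadherin, the basal cadherin of the mammary epithelium, and its log2 ratio was 4.59 on the lowest array, 6.47 at the median and 7.11 on the highest. Serpinb5, the myoepithelial serpin maspin, had a mean log2 ratio of 6.41 ± 0.15. Postn and Igfbp5, a matricellular protein and a binding protein of insulin-like growth factors, had mean log2 ratios of 6.26 ± 0.14 and 6.17 ± 0.12. The remaining genes of the 12 were Lmo1 (6.74 ± 0.28), a LIM-only transcription cofactor, Cnn1 (6.67 ± 0.10), a calponin of smooth muscle, Plet1 (6.46 ± 0.27) and Plxdc2 (6.20 ± 0.14). A second probe of Plet1 gave only 1.94.

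The 12 genes farthest below the reference held cell-cycle, matrix and tissue-restricted genes. Cdkn2a, which encodes the inhibitors p16 and p19Arf, had a log2 ratio of -5.27 on the lowest array and a median of -4.58. Its mean of -4.59 ± 0.17 is a 24.1-fold lower signal (adjusted p = 1.9e-05), and a second probe gave -2.26. Fn1, fibronectin, was read well above background in Cy5 on all 6 arrays and had log2 ratios from -4.47 to -3.03 with a median of -4.17. Bub1, a kinase of the spindle checkpoint, had a mean log2 ratio of -3.93 ± 0.13, and Kif20b, a mitotic kinesin, had -3.70 ± 0.19. Bub1 was read in Cy5 on 1 of 6 arrays, so its value lies near the Cy5 floor, and the scanner's log ratio gave -5.73.

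Several genes of this set are known as markers of other organs. They were Msln, the mesothelial surface protein mesothelin (-4.06 ± 0.16), Wt1, a transcription factor of kidney and gonad (-3.90 ± 0.11), and Rhox5, a homeobox gene of the reproductive tract (-3.73 ± 0.12). Wt1 too was read in Cy5 on 1 of 6 arrays, and the scanner's log ratio gave -5.81. Spinkl and Phex were read well above background in Cy5 by no array, and their bounds were at least 16.3-fold and at least 12.5-fold lower. Gm10845, a predicted gene, had -3.90 ± 0.18 on the probe used and -2.59 on another, and Fam111a, a protease that acts at replication forks, had -3.69 ± 0.11.

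**Figure D1:**
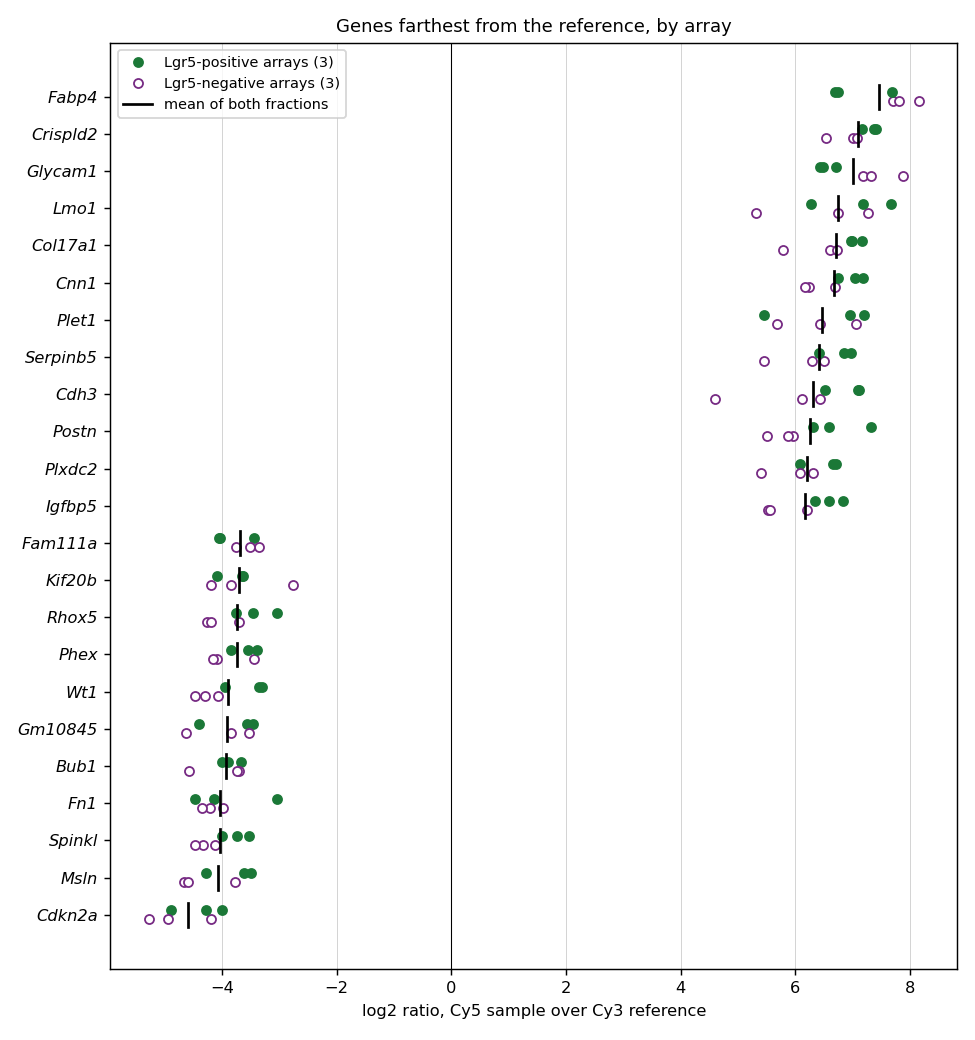
Log2 ratio of sample (Cy5) over reference (Cy3) on each of the 6 arrays for called genes among those farthest above and farthest below the reference. Filled points are the 3 Lgr5-positive arrays, open points the 3 Lgr5-negative arrays and black lines the mean of both fractions. Each gene keeps its side on all 6 arrays, from Fabp4 at 7.46 to Cdkn2a at -4.59.

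The gate's own sort markers were checked first among the marker lists. Cd24a, the CD24 gene, was above the reference, with log2 ratios of 1.60 to 2.69 and a mean of 2.25 ± 0.15 (adjusted p = 0.00084), although median centring gave 1.48 and no call (adjusted p = 0.26). Itgb1, the CD29 gene, was not called, with -1.08 to 0.03 on the probe used and a mean of 0.49 on another probe of opposite sign. Itga6, an integrin also used to gate these cells, had a mean log2 ratio of 1.78 ± 0.28 and was not called (adjusted p = 0.10), although without Lgr5-negative replicate 1 it was 2.02 and passed. Lgr5, the R-spondin receptor whose locus carries the reporter, was above the reference in both fractions, with 2.84 on the lowest array, 4.14 at the median and 5.36 on the highest. Its mean was 4.87 in the Lgr5-positive and 3.40 in the Lgr5-negative arrays, a difference of 1.47. That difference was not called by limma without regard to pairing (adjusted p = 0.27) and was called with the replicate number as a random block (adjusted p = 0.0042). Epcam, an epithelial adhesion molecule, had a mean of 0.72 ± 0.18, or -0.08 with median centring, and was not called.

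Basal identity genes were for the most part above the reference. Of 19 tested, 10 were above and 1 below (all genes 4.58% and 7.12%), and their median log2 ratio was 1.85, against -0.03 over all genes. Krt17, a keratin of stressed and basal epithelium, had log2 ratios of 4.96 to 6.01 with a median of 5.47. Krt14, the basal keratin that pairs with Krt5, had 3.93 on the lowest array, 4.30 at the median and 4.96 on the highest, a 20.4-fold difference (adjusted p = 6.8e-06). Krt5 had a mean log2 ratio of 4.17 ± 0.18 on the probe used and 3.16 on another. Krt15, a further basal keratin, had 4.49 ± 0.16. Id4, a helix-loop-helix inhibitor of basal cells, had log2 ratios of 4.13 to 5.14, and Sox10, a transcription factor shared by mammary progenitors and neural crest, had 1.46 to 3.32. All 6 arrays were high for these keratins, and the fractions overlapped except for Krt17, where the Lgr5-positive arrays all lay higher.

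Trp63, the master regulator of basal epithelium, depended on the probe. Its brightest probe had a mean log2 ratio of 0.03 ± 0.14 and was not called, whereas another probe of the gene had 5.39, and the mean over probes was 2.71 and passed (adjusted p = 2.5e-05). Vim, the intermediate filament of mesenchymal and myoepithelial cells, was the 1 basal gene below the reference, at -2.32 to -1.26. It was not called with same-numbered arrays averaged (adjusted p = 0.055).

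The smooth-muscle contractile apparatus had the highest median of the 33 lists over all 6 arrays. Of 16 genes tested, 11 were above the reference and none below, with a median log2 ratio of 2.93. On the Lgr5-negative arrays alone the endothelial list was higher, with 3.28 against 2.84 for the contractile list. Cnn1 ranged from 6.17 to 7.17, a 102-fold difference. Oxtr, the receptor through which oxytocin triggers contraction, had 4.12 on the lowest array, 4.73 at the median and 5.11 on the highest, a 25.0-fold difference. Tagln, an actin-binding protein of smooth muscle, had a mean log2 ratio of 3.97 ± 0.08, and Acta2, smooth-muscle alpha-actin, had 2.77 ± 0.10 with all arrays between 2.47 and 3.18. Myl9, the regulatory light chain of smooth-muscle myosin, lay between 3.09 and 4.10. Synpo2, an actin-bundling protein, had 4.01 on the probe used and 0.21 and 0.22 on others.

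Not every contractile gene was high. Cald1, caldesmon, had a mean log2 ratio of 0.58 and Des, desmin, -0.75, and neither was called. Tpm1, a tropomyosin, had probes on both sides of the reference, from -1.21 to 0.71. In 6 of the 16 genes the Lgr5-positive arrays all lay higher than the Lgr5-negative arrays, and in 2 genes all lower, where over all genes such separation held for 4.34% and 7.7%. By limma's test of the fractions, 0 of the 16 differed, with an unadjusted p below 0.05 in 6, and 6 of the 16 differed with the replicate number as a random block, where 6.27% of all genes did.

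The basement membrane and hemidesmosome list showed the basal attachment machinery on the high side. Of 17 genes tested, 8 were above and 1 below (all genes 4.58% and 7.12%), with a median log2 ratio of 1.07. Lamb3, a chain of laminin-332, had a mean log2 ratio of 3.99 ± 0.17. Lama3, another chain of it, had 1.44 on the brightest probe and 4.85 on another, and its call was lost with same-numbered arrays averaged (adjusted p = 0.11) and without Lgr5-positive replicate 2 (1.39) or 3 (1.45) or Lgr5-negative replicate 2 (1.37). Itgb4, the integrin that anchors hemidesmosomes to laminin-332, had log2 ratios of 3.76 to 4.47, with fraction means of 4.22 and 4.23. Nid2, a nidogen that links laminin to collagen IV, was below at -2.89 to -1.65, while the collagen IV chains Col4a1 (1.07) and Col4a2 (0.19) were not called.

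**Figure D2:**
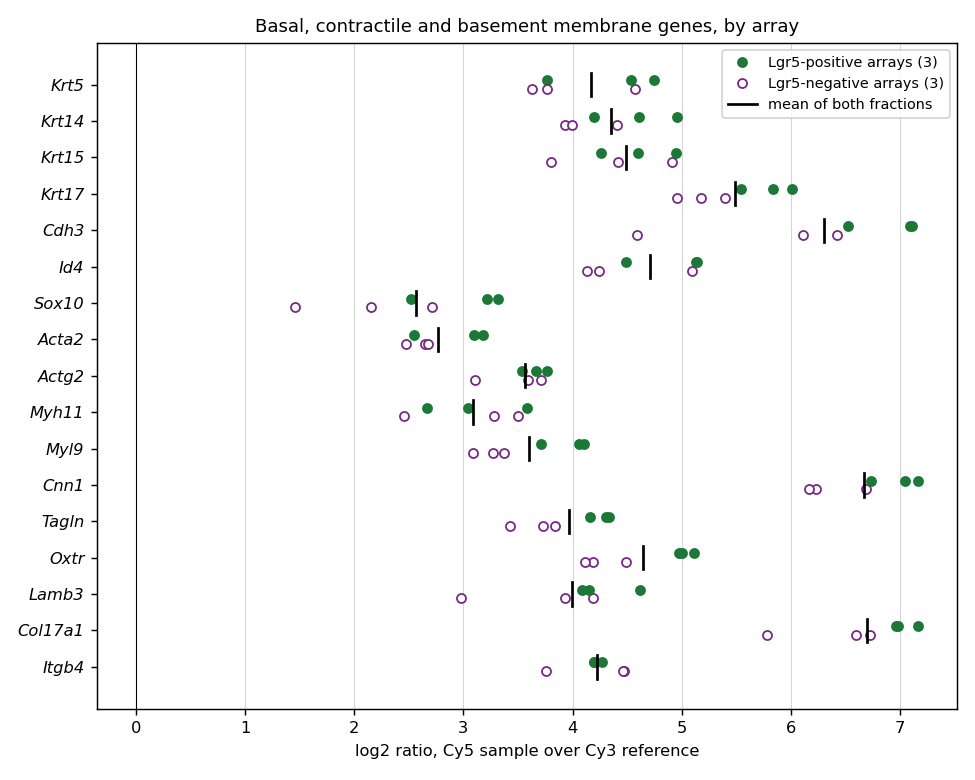
Log2 ratio to the reference on each array for basal, contractile and basement membrane genes, with filled points for the 3 Lgr5-positive and open points for the 3 Lgr5-negative arrays and a black line for the mean of both fractions. The genes were picked for display, and not all members of these lists are shown. Among those left out are Trp63, Vim and Nid2, with means of 0.03, -1.78 and -2.22. All points shown lie above 0, and Cnn1, Col17a1 and Cdh3 reach 7.17, 7.16 and 7.11 on their highest arrays.

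Of 28 regulators of epithelial and mesenchymal state tested, 10 were above and 4 below, with a median log2 ratio of 0.75. Cdh1, E-cadherin, had log2 ratios of 4.17 to 6.23 (mean 5.21 ± 0.29). Tfap2c, a transcription factor of surface and mammary epithelium, had 4.88 ± 0.13, and the Iroquois homeobox genes Irx1 and Irx2 had 3.15 ± 0.12 and 3.37 ± 0.09, although a second Irx2 probe gave 0.55. Twist1 and Twist2, helix-loop-helix factors of mesenchyme, were below with means of -2.11 ± 0.08 and -2.56 ± 0.08. Zeb2 and Cdh2, a repressor of E-cadherin and N-cadherin, were also called below at -1.62 and -1.59, but neither passed with the replicate number as a random block (adjusted p = 0.20 and 0.078). Each was also lost without Lgr5-positive replicate 1 (-1.63 and -1.57) or replicate 2 (-1.65 and -1.55), and the list then counted 2 genes below. Zeb2 was lost without Lgr5-positive replicate 3 as well (-1.58). Snai2, known for its role in basal mammary cells, had 0.62, or -0.21 with median centring, and was not called.

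In the list of Wnt ligands, receptors and feedback genes 6 of 27 were above and none below (all genes 4.58% and 7.12%). The median log2 ratio was 0.88. The secreted modulators Dkk3 and Wif1 had log2 ratios of 3.05 to 4.71 and 2.35 to 4.50. The ligand Wnt5b had a mean of 3.16 ± 0.19, and Nkd1, an intracellular feedback inhibitor, had 3.18 ± 0.15 with a second probe at 0.37. The remaining genes above were the ligand Wnt11 (2.96) and the R-spondin Rspo1 (1.98). Axin2, the usual transcriptional target of the pathway, had -0.17 and was not called. Among the receptors, Fzd7 had 0.92 (another probe -0.25), Lrp5 1.23 and Lgr4 1.11, none of them called, whereas Lgr5, counted with the sort markers, was above.

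In the Notch list 4 of 15 genes were above and none below (all genes 4.58% and 7.12%), with a median of 0.64. They were the ligands Dll1 (3.87 ± 0.20), Jag2 (3.06 ± 0.16) and Jag1 (2.42 ± 0.34), and the target Hes1 (1.73 ± 0.19). Jag1 was not called with same-numbered arrays averaged (adjusted p = 0.11), and Hes1 was not called with either form of the replicate block (adjusted p = 0.11 each). Without Lgr5-positive replicate 2 or 3 or Lgr5-negative replicate 2 or 3, Jag1 (2.20 to 2.33) and Hes1 (1.60 to 1.71) were lost and the count was 2, and Hes1 was also lost without Lgr5-negative replicate 1 (1.79). The receptors Notch1, Notch2 and Notch3 had -0.26, -0.72 (another probe 0.56) and -0.09 and were not called. The list median was 0.37 on the Lgr5-positive and 1.33 on the Lgr5-negative arrays. In 7 of the 15 genes the Lgr5-negative arrays all lay higher and in 1 all lower, against 7.7% and 4.34% of all genes. The fractions differed in 1 gene by limma's test and in 4 with the replicate number as a random block, against 0.437% and 6.27% of all genes.

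Growth factors and their receptors, a list of signals that basal cells are known to send and receive, had 7 of 26 genes above and none below, with a median log2 ratio of 0.74. Igfbp5 had log2 ratios of 5.52 to 6.82. Igfbp3, another binding protein of insulin-like growth factors, had 2.08 to 3.85. Bmp7, a bone morphogenetic protein, had 3.21 ± 0.19, and Fgf1, a fibroblast growth factor, had 4.60 ± 0.15 on the probe used and 0.55 on another. The receptors Egfr and Erbb2 had 0.58 and -0.62 and were not called. Without Lgr5-negative replicate 3, Igfbp4 was called below at -1.39.

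In the luminal progenitor and milk list 6 of 11 genes tested were above and none below, with a median log2 ratio of 1.77. Trf, transferrin, an iron carrier of milk, had log2 ratios of 5.14 to 5.94 with a median of 5.41. Ltf, lactoferrin, had 2.69 to 3.88, and Lcn2, a siderophore-binding lipocalin, had 2.69 to 3.80. Aldh1a3, a retinaldehyde dehydrogenase used as a luminal progenitor marker, had 3.28 ± 0.27. Probes of the caseins Csn2 and Csn3 and of Wap, the main milk proteins, were too dim to test, and Csn1s1 had 0.12.

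In the hormone-sensing list 4 of 14 genes were above and none below, with a median of 0.67. Pgr, the progesterone receptor, was read in Cy5 on all 6 arrays but in the reference on none, and lay at least 4.99-fold higher in the gate, while another probe had 0.41. With same-numbered arrays averaged it missed the threshold (adjusted p = 0.057). Cited1, a coactivator of hormone-responsive cells, had log2 ratios of 1.37 to 3.95. Areg, the growth factor that relays oestrogen signals, ranged from -0.05 to 3.23, and its call (adjusted p = 0.048) was lost with the replicate number as a random block (adjusted p = 0.10) and without any 1 of Lgr5-positive replicates 2 and 3 and Lgr5-negative replicates 2 and 3 (1.56 to 1.82). Prom1 had 1.74 ± 0.14 with a second probe at 0.14, and was not called with same-numbered arrays averaged (adjusted p = 0.065). The list then counted 1 gene above. Esr1, the oestrogen receptor, had 0.78 ± 0.13, and the luminal keratins Krt8 and Krt18 had 0.37 ± 0.15 and -0.04 ± 0.15, none of them called, and Krt8 had -0.48 with median centring. Prlr, the prolactin receptor, had 0.54 on the brightest probe and 3.68 on another. In this list the Lgr5-negative arrays all lay higher than the Lgr5-positive arrays in 6 genes and lower in none, against 7.7% and 4.34% of all genes. The fractions differed in 0 of the 14 by limma's test (unadjusted p below 0.05 in 8) and in 8 with the random block. Over all genes these shares were 0.437% and 6.27%.

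Markers of blood vessel endothelium were among the lists farthest above the reference. Of 11 tested, 6 were above and none below, with a median log2 ratio of 2.20. Cdh5, the cadherin of endothelial junctions, had 2.36 on the lowest array, 5.43 at the median and 6.97 on the highest, with a mean of 5.05 ± 0.38. Cldn5, an endothelial claudin, had 2.10 to 5.55, and Esam, an adhesion molecule of the same junctions, 2.74 to 5.01. Plvap, a protein of endothelial fenestrae, had 1.91 to 4.90 on the probe used and a mean of 1.41 on another. Emcn, an endothelial sialomucin, had a mean of 2.20 ± 0.30, and its call was lost with the replicate number as a random block (adjusted p = 0.11) and without Lgr5-positive replicate 2 (1.96) or 3 (2.30) or Lgr5-negative replicate 2 (2.14) or 3 (1.98). Pecam1, the adhesion molecule CD31, had 0.36 ± 0.17 and was not called.

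These endothelial genes were uneven over the gate. The Lgr5-negative arrays all lay higher than the Lgr5-positive arrays in 9 of the 11 genes, against 7.7% of all genes. By limma's test 3 of the 11 differed between fractions, where 0.437% of all genes did. With the replicate number as a random block 8 of the 11 differed, where 6.27% of all genes did. The median log2 ratio of the list was 0.92 on its lowest array and 4.14 on its highest. Over all genes, 81 differed between fractions, 77 of them lower in the Lgr5-positive cells, and 34 of the 849 genes above the reference and 2 of the 1320 below it were among them. With the random block 1163 genes differed, 878 of them lower in the Lgr5-positive cells, and they held 303 of the 849 and 68 of the 1320. The count without the block rested on single arrays. It was 0 without Lgr5-positive replicate 1 or 3 or Lgr5-negative replicate 2 (unadjusted p below 0.05 in 1236, 1027 and 1157 genes), 14 without Lgr5-negative replicate 3 and 357 without Lgr5-negative replicate 1. What part the endothelial markers have in the ratios of other genes that vary between the arrays was not tested.

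Other cell types of the gland were less marked. Of 17 leukocyte genes tested, none was above and 2 were below (all genes 4.58% and 7.12%), with a median log2 ratio of -0.03. Ptprc, the pan-leukocyte CD45, had -1.37 ± 0.14 and was not called (adjusted p = 0.13), but it passed without Lgr5-positive replicate 1, at -1.49. The myeloid genes Lyz2 and Spi1 were read well above background in Cy5 by no array. Every array read Cy5 well above background for 12 of the 17 leukocyte genes. Cd4, the co-receptor of helper T cells, had 1.77 and was not called, but was above, at 2.02, without Lgr5-positive replicate 2 or without Lgr5-negative replicate 2. Cd79b, a chain of the B-cell receptor, was below at -1.85 ± 0.13. Cd3g, a chain of the T-cell receptor complex, was called below at -1.59 ± 0.14, not with the replicate number as a random block (adjusted p = 0.068), nor without Lgr5-positive replicate 1 or 3 (-1.52 each) or Lgr5-negative replicate 1 or 3 (-1.54 and -1.60), which left a count of 1 in 3 of those cases.

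Fibroblast genes went both ways, with 3 of 11 above and 4 below and a median log2 ratio of -0.04. The fibrillar collagens Col1a1, Col1a2 and Col3a1 were below, with log2 ratios of -3.32 to -2.23, -3.26 to -2.42 and -2.49 to -1.78. Pdgfra, the receptor that marks fibroblasts, was below at -3.49 to -2.70. Lum, a small proteoglycan of collagen fibrils, was above at 1.09 to 2.71, and so was Mfap5, a microfibril protein, at 1.24 to 2.42. With median centring in place of loess, none of the list was called above. Pi16 was the remaining gene above, at 1.66 ± 0.15, and was not called with the replicate number as a random block (adjusted p = 0.19) or without Lgr5-positive replicate 2 or 3 (1.59 and 1.66).

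Pericyte, Schwann cell and adipocyte lists had 1 of 8, 2 of 6 and 1 of 6 genes above and none below. The pericyte gene was Rgs5, at 1.70 ± 0.20, which was not called with same-numbered arrays averaged (adjusted p = 0.17) or without any 1 of Lgr5-positive replicates 2 and 3 and Lgr5-negative replicates 2 and 3 (1.56 to 1.68), leaving a count of 0. Pdgfrb, the pericyte receptor, had -0.79 ± 0.09 and was not called. The 2 Schwann cell genes were Egr2 and Sox10, which also stand in the immediate early and the basal list. The adipocyte gene was Fabp4, beside Plin1 at 0.06, Lpl at -0.63 and Adipoq too dim to test.

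**Figure D3:**
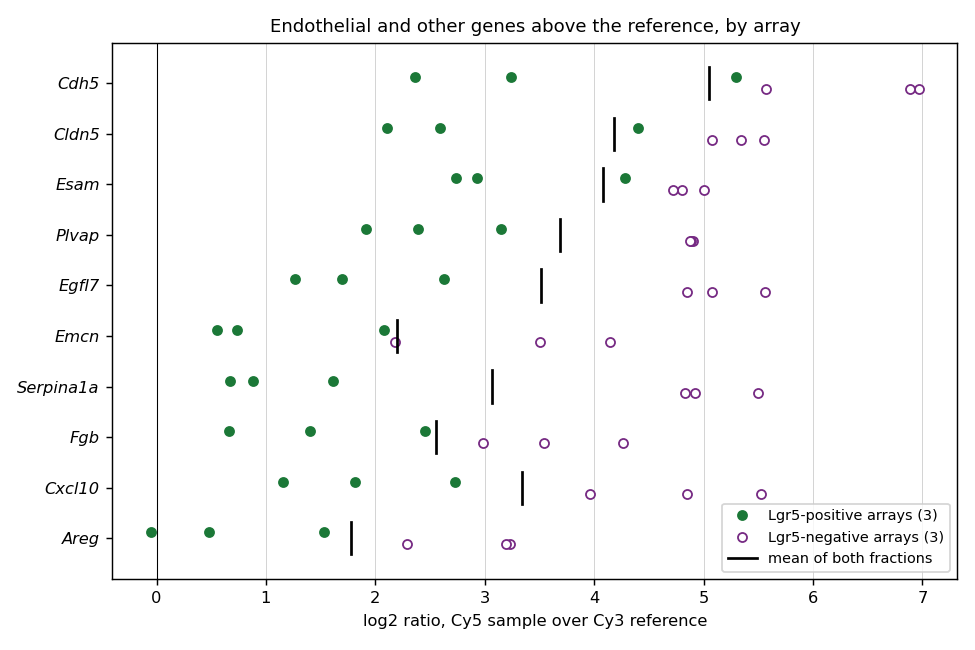
Log2 ratio to the reference on each array for 6 endothelial genes (Cdh5 to Emcn), 2 liver-type secreted proteins (Serpina1a, Fgb), a chemokine (Cxcl10) and a growth factor (Areg). Filled points are the 3 Lgr5-positive and open points the 3 Lgr5-negative arrays. The genes were picked for display. In all 10 the open points lie to the right of the filled ones, as for Plvap with fraction means of 2.48 and 4.89. Such separation held for 7.7% of all genes. In the liver list it held for 2 of 6 genes tested, and for 2 in the other direction.

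Early response genes formed the group with the largest share of members above the reference. Of 20 immediate early and heat shock genes tested, 15 were above and none below, with a median log2 ratio of 2.73. Hspa1a, an inducible heat shock protein, had log2 ratios of 3.67 to 5.11 with a median of 4.56. Atf3, a stress-induced transcription factor, had 3.67 to 4.20, and Fosb, an AP-1 subunit, had 3.51 to 4.38. Egr2, an early growth response factor, had 4.06 ± 0.12. The arrays differed little, and the list's median per array lay between 2.28 and 2.91. Myc, Ier2 and Egr3 had 0.34, 0.03 and 0.45 and were not called. The tissue had been dissociated mechanically and with enzymes before sorting, per the labels' protocols, and the part of that step in these ratios was not tested.

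The NF-kappaB and chemokine list had 7 of 16 genes above and none below, with a median log2 ratio of 1.37. Il6, an inflammatory cytokine, had log2 ratios of 3.49 to 6.04. Nfkbia, the inhibitor that NF-kappaB itself induces, had 2.51 to 4.42, and the chemokine Cxcl1 had 1.80 to 3.87. Cxcl10, an interferon-induced chemokine, ranged from 1.16 to 5.52 with fraction means of 1.90 and 4.78 in Lgr5-positive and Lgr5-negative arrays. In 6 genes of the list the Lgr5-negative arrays all lay higher, against 7.7% of all genes. With the random block 4 of the 16 differed between fractions, and without it 0 (unadjusted p below 0.05 in 7), against 6.27% and 0.437% of all genes. The interferon-stimulated and MHC class I genes lay elsewhere, with none of 18 above and 3 below (Ifi44 at -2.44 ± 0.26, Bst2 at -2.41 ± 0.08 and Usp18 at -1.63 ± 0.09) and a median of -0.50. Irf1, a regulator of interferon responses, was called above without Lgr5-positive replicate 2, at 1.59. In 12 of those 18 the Lgr5-negative arrays all lay higher, against 7.7% of all genes. The fractions differed in 11 with the random block and in 0 without it (unadjusted p below 0.05 in 12), against 6.27% and 0.437% of all genes.

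DNA replication and mitosis genes had the lowest median of the 33 lists. Of 28 tested, 23 were below the reference and none above, with a median log2 ratio of -2.07. Mki67, the proliferation antigen, had log2 ratios of -3.39, -3.59 and -3.62 on the Lgr5-positive arrays and -2.83, -2.89 and -3.35 on the Lgr5-negative arrays. Every array was low, and the mean of -3.28 ± 0.10 is a 9.71-fold lower signal (adjusted p = 1.2e-05). Rrm2, a subunit of ribonucleotide reductase, had -3.50 to -2.87, and Top2a, the topoisomerase of dividing cells, had -3.24 to -2.34. Bub1 had the lowest mean of the list. The replication helicase subunits Mcm2 to Mcm7 were all below, from -1.66 for Mcm5 to -2.61 for Mcm2, although Mcm5 was not called with same-numbered arrays averaged (adjusted p = 0.087) or without Lgr5-positive replicate 2 (-1.62) or 3 (-1.60). Pcna, Tyms and Ccne1 had -0.32, -0.08 and 0.30 (another Ccne1 probe -0.74) and were not called. On the Lgr5-negative arrays alone, 14 of the list were called below.

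The 200 bases before the start of 4 of these genes are shown, because many promoters of cell-cycle genes carry the cell cycle homology region, a short element to which repressor complexes bind in resting cells. Its core letters, TTTGAA, were searched on both strands in the 250 bases before each start in the RefSeq promoters of build GRCm38.p6. Of the 28 genes, 24 had a promoter in that table, and 7 of them (29.2%) held the letters, against 16% of all 32851 promoters. A gene can have several promoters in the table and counted when any of them matched. Sequences run 5′ to 3′ on the strand of the gene and end at the base before the start, with the letters found, on either strand, in capitals.
Mki67: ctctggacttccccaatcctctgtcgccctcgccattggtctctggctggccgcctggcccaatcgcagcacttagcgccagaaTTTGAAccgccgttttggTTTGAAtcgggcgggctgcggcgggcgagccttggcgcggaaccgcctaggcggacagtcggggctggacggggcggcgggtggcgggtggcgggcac
Top2a: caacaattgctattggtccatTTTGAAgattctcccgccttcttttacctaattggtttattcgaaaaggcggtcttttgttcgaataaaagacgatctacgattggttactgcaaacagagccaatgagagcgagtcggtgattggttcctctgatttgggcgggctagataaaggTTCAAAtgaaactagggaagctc
Ccnb2: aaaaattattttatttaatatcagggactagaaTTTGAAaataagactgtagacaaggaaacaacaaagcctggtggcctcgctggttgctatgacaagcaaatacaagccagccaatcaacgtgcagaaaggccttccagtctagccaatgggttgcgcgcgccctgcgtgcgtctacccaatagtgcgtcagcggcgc
Mcm2: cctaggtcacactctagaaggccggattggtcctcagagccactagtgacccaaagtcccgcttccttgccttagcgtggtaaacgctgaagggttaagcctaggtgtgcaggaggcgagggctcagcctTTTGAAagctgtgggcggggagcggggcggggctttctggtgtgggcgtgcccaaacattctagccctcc
They lie at chr7:135716380-135716579 for Mki67, chr11:99024190-99024389 for Top2a, chr9:70421555-70421754 for Ccnb2 and chr6:88898781-88898980 for Mcm2, each on the minus strand. Mki67 holds the letters at -116 and -98 from its start, Top2a at -179 and, on the opposite strand, at -23, Ccnb2 at -167 and Mcm2 at -70. The log2 ratios of the 4 genes were -3.28, -2.88, -1.70 and -2.61. A match in a window is a description of letters and does not show that a factor binds there.

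The CArG box, the element through which serum response factor acts on smooth-muscle genes, was searched in the same way in the contractile list. Of 13 genes with a promoter in the table, 1 held it (7.69%), against 1.47% of all promoters. That gene is Myl9, whose 200 bases before the start on the plus strand, chr2:156775264-156775463, are shown with the box in capitals at -161.
Myl9: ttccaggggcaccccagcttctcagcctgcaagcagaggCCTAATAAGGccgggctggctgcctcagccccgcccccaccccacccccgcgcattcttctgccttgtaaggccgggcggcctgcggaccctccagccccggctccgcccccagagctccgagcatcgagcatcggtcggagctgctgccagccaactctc

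Cell cycle inhibitors did not move as a group. Of 14 inhibitors and D cyclins, 2 were above and 3 below, with a median log2 ratio of -0.43. Cdkn1a, the inhibitor p21, had log2 ratios of 1.42 to 1.84 with a mean of 1.62 ± 0.08, but a second probe had -0.25, and neither the mean over probes (0.69) nor median centring (0.78) gave a call. Gadd45g, a stress-induced growth arrest gene, was above at 2.40 ± 0.17. The INK4 family members Cdkn2a, Cdkn2b and Cdkn2c, inhibitors of CDK4 and CDK6, were the 3 below, the last 2 with means of -2.18 ± 0.15 and -2.09 ± 0.08. Ccnd1, cyclin D1, had -1.88 to -1.82 on the Lgr5-positive arrays and -0.70 to 1.17 on the Lgr5-negative arrays, with no call for its mean of -0.85 or for the difference between fractions (adjusted p = 0.16), which was called with the replicate number as a random block (adjusted p = 0.010).

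Glycolysis and hypoxia genes were below the reference with little spread between arrays. Of 18 tested, 11 were below and none above, with a median log2 ratio of -1.68 that lay between -1.84 and -1.61 on single arrays. The glycolytic enzymes Tpi1, Pgk1 and Pgam1 had log2 ratios of -2.81 to -2.39, -2.85 to -2.25 and -2.63 to -2.16. Gapdh, often used as a control gene, had -1.81 to -1.36, a 3.16-fold lower signal. Egln3, a hypoxia-induced prolyl hydroxylase, had -2.74 to -1.74. The glucose transporter Slc2a1 and the kinase Hk2 had 0.17 and -0.30 and were not called.

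Other metabolic and housekeeping lists lay nearer to the reference. None of 21 respiratory chain genes was called in either direction by limma's treat test, nor had an unadjusted p below 0.05, with a median of -0.32, although 2 were called below with median centring. Of 28 cytosolic ribosomal protein genes, 1 was above and none below (all genes 4.58% and 7.12%), with a median of 0.39. That gene was Rps14, at 2.08 ± 0.20, which was not called with same-numbered arrays averaged (adjusted p = 0.052). Cholesterol synthesis had 3 of 17 genes below and none above, with a median of -0.81. They were Lss (-1.79 ± 0.08, read in Cy5 on 1 of 6 arrays and at -3.28 by the scanner's log ratio), Nsdhl (-1.39 ± 0.08) and Idi1 (-1.46 ± 0.12). Idi1 was not called with the replicate number as a random block (adjusted p = 0.27) and Nsdhl not with same-numbered arrays averaged (adjusted p = 0.099). Nsdhl was read well above background in Cy5 on 3 of 6 arrays, and its mean over probes was -0.97, with no call. Without Lgr5-positive replicate 1 or 2 or Lgr5-negative replicate 1 or 3, Idi1 (-1.42 to -1.40) was lost.

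Circadian clock genes had 3 of 15 above and 2 below. Per1, a repressor of the clock that also responds to acute signals, was the most even, with log2 ratios of 1.69 to 1.78 over the 6 arrays. Nfil3 and Bhlhe40, transcriptional repressors of clock output, had 2.10 ± 0.09 and 1.54 ± 0.09. Tef, an activator of output genes, was below at -1.63 ± 0.09. Dbp, its relative, was called below at -1.58 ± 0.16, but not with the replicate number as a random block (adjusted p = 0.057) nor without Lgr5-positive replicate 2 or 3 or Lgr5-negative replicate 2 or 3 (-1.55 to -1.48), which left a count of 1. The list median of 0.18 became -0.24 with median centring, and then no gene was above. The E-box CACGTG stood in the 250 bases before the start of 4 of 13 clock genes with a promoter in the table (30.8%), against 6.02% of all promoters. A gene counted when any of its promoters matched, whereas the share over all is per promoter.

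Genes of position and of development were uneven. Of 35 Hox genes tested, 7 were below and none above, with a median log2 ratio of -0.40 that was 0.02 on the Lgr5-negative arrays alone. Hoxc9, Hoxc6 and Hoxc4 had log2 ratios of -3.44 to -3.01, -2.90 to -2.21 and -2.32 to -1.17. Hoxa11 was read well above background in Cy5 by no array and lay at least 4.17-fold lower. Hoxc4 was not called with same-numbered arrays averaged (adjusted p = 0.068) or without Lgr5-positive replicate 2 (-1.70), when the count was 4. With the replicate number as a random block the count was also 4, and with same-numbered arrays averaged it was 3. Hoxa10, Hoxc10 and Hoxc11 were lost in both (adjusted p = 0.084, 0.18 and 0.15 with the random block). In 14 Hox genes the Lgr5-negative arrays all lay higher and in 3 all lower, against 7.7% and 4.34% of all genes. The fractions differed in 1 Hox gene by limma's test and in 11 with the random block, against 0.437% and 6.27% of all genes.

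Among imprinted genes 1 of 19 was above and 2 were below, near the shares of 4.58% and 7.12% over all genes. Dlk1, a paternally expressed inhibitor of differentiation, had log2 ratios of -3.66 to -2.47 on the probe used and a mean of -1.70 on another. Phlda2, a maternally expressed placental growth inhibitor, had 1.36 to 2.39. Kcnq1ot1, a long noncoding RNA, was called below at -1.46 ± 0.13 but not with the replicate number as a random block (adjusted p = 0.076), nor without Lgr5-positive replicate 1 or 2 or Lgr5-negative replicate 1 or 2 (-1.43 to -1.38), which left a count of 1. Of the embryonic and germ cell list, none of 11 was above and 2 were below. Hmga2, a chromatin protein of embryonic cells, had -3.28 to -1.99, and Igf2bp1, an RNA-binding protein, had -1.60 ± 0.12, not called with the replicate number as a random block (adjusted p = 0.075).

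Lists for tissues outside the gland gave mixed values. Afp, the fetal liver protein, was read well above background in Cy5 by no array and lay at least 9.0-fold lower. Serpina1a and Fgb, secreted proteins known from liver, were above at 3.07 ± 0.15 and 2.55 ± 0.25, but with fraction means of 1.06 and 5.08 for Serpina1a and 1.51 and 3.60 for Fgb. A second Serpina1a probe gave 1.82, and Alb, Ttr and Apoa1 were too dim to test. Of 10 skeletal myoblast genes, Acta1, skeletal alpha-actin, was above at 2.03 to 2.65. Chrna1, a subunit of the muscle acetylcholine receptor, was called below at -1.54 ± 0.13 but not with the replicate number as a random block (adjusted p = 0.12), and its call was also lost without any 1 of Lgr5-positive replicates 1, 2 and 3 and Lgr5-negative replicates 1 and 2 (-1.57 to -1.44). The Y-linked genes Ddx3y and Eif2s3y were read well above background in Cy5 by no array and lay at least 6.51-fold and at least 6.69-fold lower, and Xist, the RNA of the inactive X chromosome, had -0.81 ± 0.23 and was not called. Of 5 erythroid and platelet genes tested, Pf4, a platelet chemokine, was called below at -1.96 ± 0.18, but not with the replicate number as a random block (adjusted p = 0.10). Where a list had no called gene on a side, limma's unadjusted treat p was below 0.05 for 1 gene on that side in the leukocyte, interferon and growth factor lists and for 0 genes in the others.

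**Figure D4:**
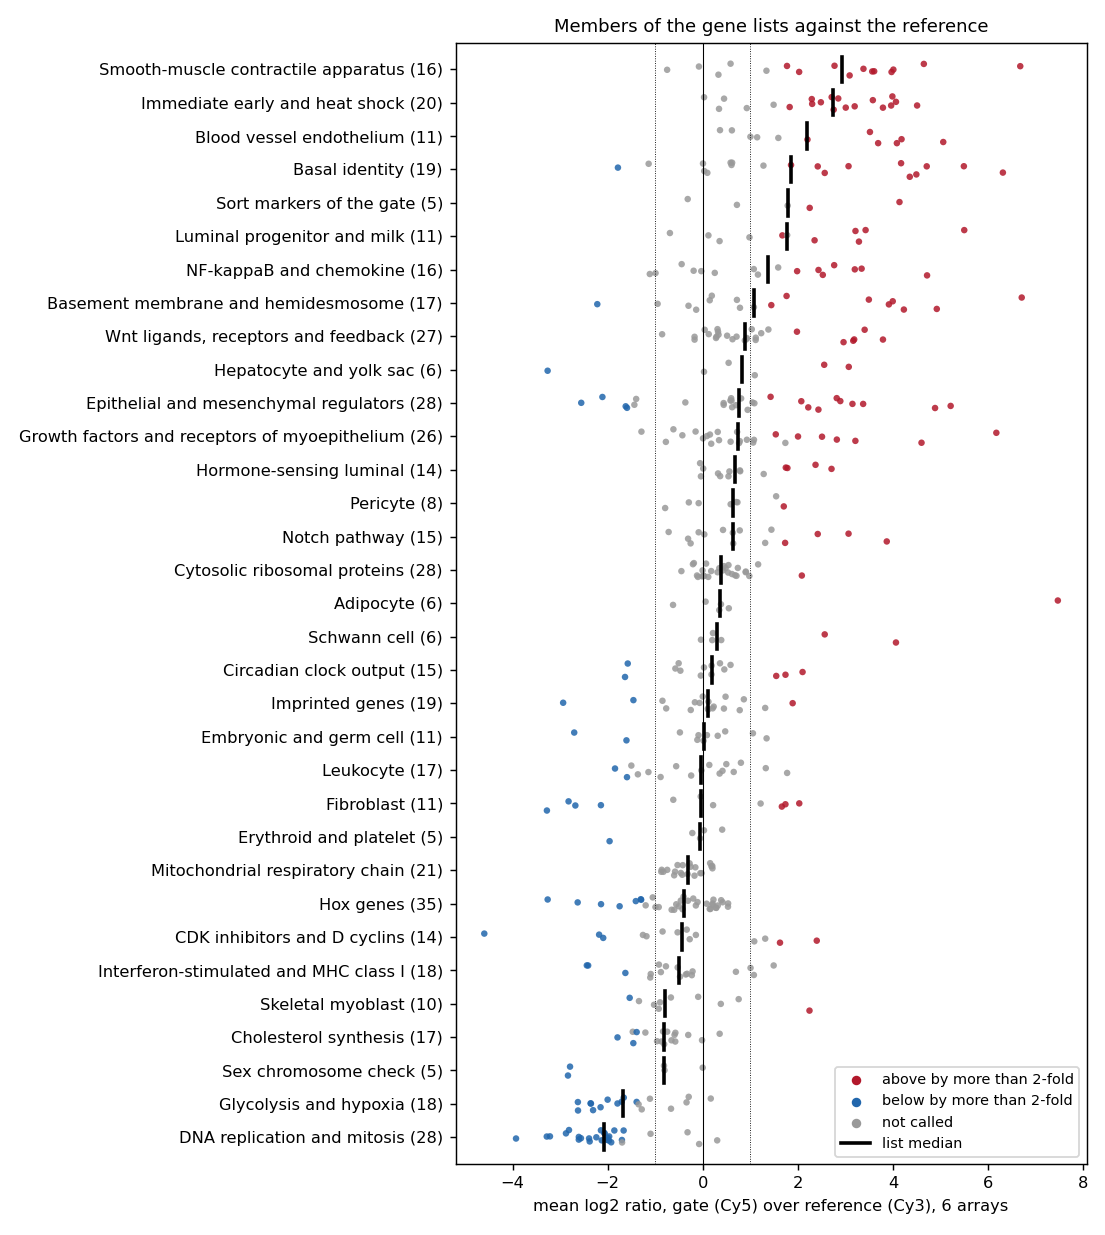
Mean log2 ratio to the reference over the 6 arrays for each tested member of the 33 gene lists, with red points for genes called above, blue for genes called below and grey for genes not called. Black bars are list medians, numbers in parentheses are genes tested, dotted lines mark the 2-fold thresholds, and vertical placement within a list is arbitrary. Medians run from 2.93 for the contractile apparatus to -2.07 for DNA replication and mitosis.

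A single mean did not describe the gate for every gene. Called separately, 428 genes were above in both fractions, of 633 in the Lgr5-positive and 616 in the Lgr5-negative arrays alone, and 558 genes were below in both, of 982 and 604. Each of these fits had only 3 arrays, so a call in a single fraction does not show a difference between the fractions. Only 1 gene was called above in a fraction and below in the other. There were 20 genes with a fraction mean under -1 in the Lgr5-positive arrays and over 1 in the Lgr5-negative arrays, and 0 with the opposite arrangement. These genes were chosen by that difference, which is given as a description. Singled out after their values were seen, Bst1, an ectoenzyme of stromal and myeloid cells, had fraction means of -1.46 and 3.06, and Enpp2, the enzyme autotaxin, had -1.35 and 3.15. Esm1, an endothelial proteoglycan, had -1.79 and 2.07. The gate means of these 3 genes, 0.80, 0.90 and 0.14, lay within 2-fold of the reference.

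**Figure D5:**
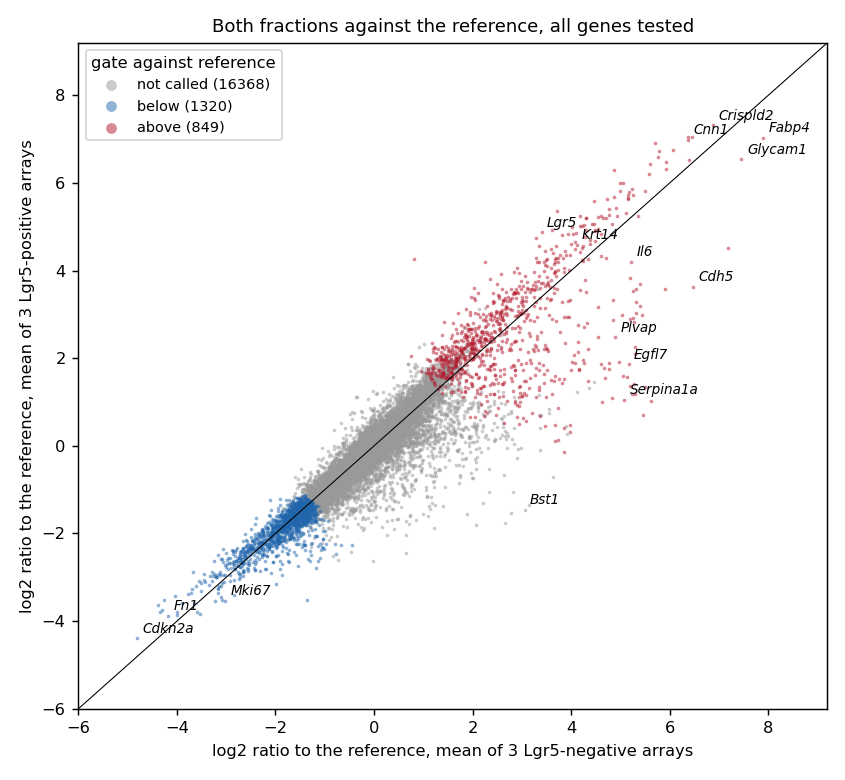
Mean log2 ratio to the reference in the 3 Lgr5-negative arrays (horizontal) and the 3 Lgr5-positive arrays (vertical) for all 18537 genes tested, coloured by the call of the gate against the reference. The diagonal marks equal ratios. Genes far from the diagonal lie mostly below it, including Serpina1a (5.08 and 1.06) and Bst1 (3.06 and -1.46).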

How the data were processed

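RNA of 3 Lgr5-positive and 3 Lgr5-negative samples was measured on 6 Agilent 2-colour arrays. The authors deposited scanner output. Per the submitters' processing notes, it comes from Feature Extraction version 11.0. Per the file headers, it holds median intensity per spot and channel and a log10 ratio of red over green. A deposited series table of log2 ratios has a median of 0 over arrays for 100% of its probes, so it holds no level against the reference and was not used. Median intensities were corrected with normexp (offset 50) and normalized by loess within arrays (limma 3.58.1, R 4.3.3), with control and outlier spots at weight 0. Spots of a probe were averaged (55681 probes), and 27509 probes received 1 of 20887 symbols through RefSeq transcripts. A probe was tested where Cy5 or Cy3 was well above background on at least 3 arrays (18537 genes), and the brightest probe stood for a gene. The fit had a mean per fraction, and the tested value was the mean of both. Bounds compare channels after loess and Aquantile normalization, open to dye bias: the brighter channel's mean against the higher of the dim probe's own signal and the lowest signal well above background.

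Arrays with the same replicate number deviated together from their fraction means (correlations of 0.656 to 0.799 over 3 pairs), so the numbers were taken to pair the arrays. Where a gene named in the results lost its call with the pairing, that is stated. The list counts also hold unnamed genes that lost theirs. They were Mme (basal, a list that also counts Jag1), Elf5 (milk), Fgfr1 and Pthlh (growth factors) and Gata3 (epithelial and mesenchymal regulators). The others were Tnfaip3 (NF-kappaB), Aurkb (mitosis) and Pfkp (glycolysis). The difference between fractions was fitted without the block, and also with it, an alternative added after seeing the data. The members and the 33 gene lists (513 of 539 genes tested) were chosen with earlier results of these data known. Genes named by rule are the 12 farthest called genes per direction, up to 4 called genes per list and direction, and 19 fixed genes. Results of a few genes that the rule names are not reported here. Other list members were named after their values were seen. Other probes are given where they differ in sign or by over 1. The scripts were tested on simulated data with independent arrays, which cannot show error rates under the pairing. Alternatives covered background, normalization, filters, probe choice, pairing, weights, test threshold and left-out arrays.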

Additional observations from a re-analysis of the deposited data

Results flagged for a closer look

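Plvap and Serpina1a were above the reference but differed between the fractions by limma's test. The Lgr5-positive minus Lgr5-negative difference was -2.41 for Plvap (means 2.48 and 4.89, adjusted p = 0.039) and -4.02 for Serpina1a (means 1.06 and 5.08, adjusted p = 0.0092). With the replicate number as a random block the adjusted p was 0.0012 and 0.00019, and neither difference passed without the block when Lgr5-positive replicate 1 or 3 or Lgr5-negative replicate 2 was left out, where 0 genes did. In 5 of the 141 genes chosen by rule, 1 array stood apart from the other 5 by Dixon's test, a criterion that chance alone meets in about 1 of 20 genes. These arrays were Lgr5-positive replicate 1 for Acta1 (2.65) and Hes1 (0.40), Lgr5-positive replicate 3 for Fn1 (-3.03), Lgr5-negative replicate 1 for Igf2bp1 (-1.06) and Lgr5-negative replicate 3 for Bub1 (-4.57).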

How the results depend on the processing

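Against 849 genes above and 1320 below the reference, median centring in place of loess gave 2845 below, the scanner's log ratio 2003, both channels well above background on all 6 arrays 831, and the Lgr5-negative arrays alone 604. A test against a log2 ratio of 0 gave 4882 above and 6601 below, and one against 2 gave 289 and 149. Leaving out 1 array gave 704 to 894 above and 1074 to 1238 below. With the replicate block as a random effect the counts were 737 and 981, and with the replicate block by averaging same-numbered arrays they were 616 and 835. The other alternatives moved neither count by over 1.5 times. Of the 141 genes chosen by rule, no called gene changed sign, and 38 lost their call and 4 gained one under at least 1 alternative other than the test threshold. Among those not called, Trp63, Krt18, Krt8, Epcam, Itgb1 and Pecam1 changed sign under some alternative, Krt8 to -0.48 and Trp63 to -0.83 with median centring. Calls lost with the mean over probes included those of Cdh2 (-1.19), Dbp (-1.18), Kcnq1ot1 (-1.23) and Chrna1 (-1.01). For the 81 genes that differed between fractions, alternatives chosen after seeing the data gave 1163 and 1249 with the replicate block as a random and as a fixed effect, 271 with array weights, 49 with the scanner's log ratio, 43 with both channels well above background, 5 with median centring, 2 with scale normalization and 0 to 357 without 1 array. The cause was not tested. A slide or scan block could not be run with 1 slide and 1 scan, and the replicate block ended no call against the reference of a gene chosen by rule other than those given above. Genes low in Cy5 are limited by the Cy5 background, and no alternative removes the dye effect.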

Other observations

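Of 12407 tested probes for genomic regions named as long intergenic RNAs, 0.492% were above the reference and 1.69% below, and of 24034 tested probes of RefSeq genes, 3.77% were above and 6.52% below. The genes behind the former probes are not named here.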
